A study of Oryctolagus cuniculus with 10 samples.

Results

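The splicing events described here are the alternative 3′ splice site events of rabbit liver, in which an exon can start at either of a pair of acceptor sites. All rows of the deposited table of this kind were taken, which gave 10 events in 9 genes, of 46 events in 39 genes over the 5 kinds of splicing event in the series. The livers came from male wildtype New Zealand white rabbits. For 4 weeks, 5 rabbits received a diet with 1% sunflower oil and 0.5% squalene, a terpene and precursor of cholesterol, and another 5 received a control diet with the same 1% of sunflower oil and no squalene. Both groups were starved before the livers were taken, and poly-A RNA was sequenced as paired reads of 100 bases. A legend of the study calls the sequenced material partially pooled, while the labels list 5 rabbits per diet, so each value is taken here as 1 rabbit.

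The events were selected on their inclusion values: the authors listed them for a difference between the diets in these same rabbits, at a false discovery rate (FDR) from 0.00109 to 0.0492. The event next to the upper end had an FDR of 0.0466, and events beyond the limit were not analysed here. The differences in inclusion are therefore given as a description, without a test. Inclusion is the share, in percent, of the reads at an event that hold the extra part, the stretch of exon between the 2 acceptor sites. The remaining reads skip it by joining the flanking upstream exon to the inner acceptor site. The table gives 5 values per diet in 1 cell, without rabbit numbers. Including and skipping reads were joined by their order in the cell, on the assumption that both follow 1 order of rabbits.

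A 3′ splice site is the end of an intron. It is recognised through a branch point, a pyrimidine-rich tract and an AG dinucleotide, which SF1, the U2AF proteins and the U2 small nuclear ribonucleoprotein bind. The second step of splicing then joins the upstream exon to the AG that is used. When a pair of AG dinucleotides lies within reach, the exon is lengthened or shortened by the distance between them. An extra part made of whole codons can leave the reading frame of a coding exon as it is, and any other length shifts it.

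Extra parts ranged from 3 to 695 bases, with a median of 39.5. In 4 events the extra part was 20 bases or less: 3 bases in ZNF263, 7 in SMIM15, 15 in HGF and 20 in DUS4L. In 4 others it was over 100 bases: 113 in LOC103351000, 615 in ZSCAN25, 628 in ZNF711 and 695 in LOC100343225. The events of DCAF8 had 41 and 38 bases and used the same inner site, so their outer sites were 3 bases apart. The extra part was a multiple of 3 in 3 events, with the length of 1 codon in ZNF263, 5 codons in HGF and 205 codons in ZSCAN25. In 7 events it was not. Whether these exons are coding was not looked up, since the annotation used here is of another assembly. All 9 gene IDs were found in that annotation (RefSeq, assembly mOryCun1.1), which lists 8 of them as protein-coding and LOC103351000 as a long non-coding RNA.

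Reads at these events were few. Over the 100 values, the reads per rabbit ranged from 1 to 134, with a median of 11, and 47 values rested on fewer than 10 reads. The 95% Wilson interval of a value, which covers counting error only, had a median width of 39.0 percentage points. SMIM15, LOC103351000 and LOC100343225 were the 3 events with at least 10 reads in every rabbit. The libraries themselves differed little, with 45.26 M to 46.12 M clean reads (M, mega) over the 10 libraries. Mean inclusion was higher on squalene in 7 events and lower in 3. Of the 50 values per diet, 19 on squalene and 9 on the control diet were at 100%, while 2 on squalene and 8 on the control diet were at 0%. These tallies, of higher and lower means and of values at 100% and 0%, count both DCAF8 events, which share skipping reads. They were not made over the other events of the series. Many of these values rest on few reads, such as the squalene values of DUS4L at 0% or 100%, from 1 to 3 reads. The values of the diets lay fully apart in 0 of the 10 events, beside 8 of all 46 events (17.4%). Among the 10 events of alternative 5′ splice sites they lay apart in 1. With 4 squalene values beyond every control value, 4 events lay above (both of DCAF8, ZNF263, ZSCAN25) and 3 below (LOC100343225, ZNF711, LOC103351000). This count was not made over all 46 events. The 10 events were listed for such a difference, and the DCAF8 events share their skipping reads, so it is a description only.

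**Figure D1:**
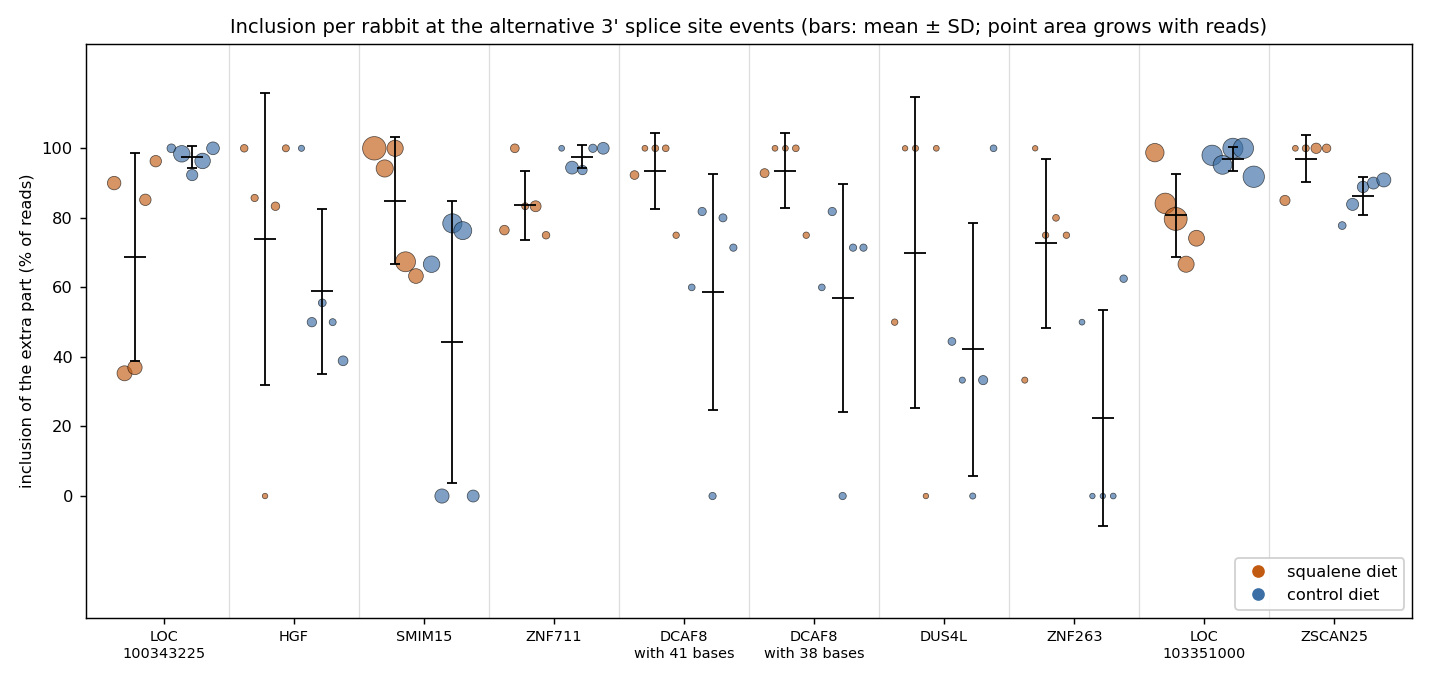
Inclusion of the extra part in percent of reads (vertical axis) for each event (horizontal axis), with 1 point per value, an area that grows with its reads, and bars for mean ± SD (n = 5 per diet, squalene left of control). SMIM15 has 2 control values at 0%, and LOC103351000, ZNF711 and LOC100343225 are the 3 events with lower means on squalene; bars that pass 0 or 100% are a result of the SD being drawn on both sides of the mean.

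SMIM15, a gene for a small integral membrane protein of little known function, had the most reads among the short extensions. Mean inclusion of its extra 7 bases was higher on squalene, where every rabbit used mainly the outer site, whereas 2 control rabbits used the inner site alone. Its long exon lay at NC_013679.1:77196785-77196945 on the minus strand of OryCun2.0, its flanking exon at 77197485-77197594, and the extra part at the upstream end of the long exon. On squalene the inclusion was 100%, 94.2%, 100%, 67.4% and 63.3%, and on the control diet it was 66.7%, 0%, 78.4%, 76.3% and 0%. The diets overlapped, with 3 squalene values above every control value and 2 in the range of the upper 3 control values or just under it. The means were 85.0% ± 18.2 on squalene and 44.3% ± 40.7 on the control diet (SD, n = 5 each), a difference of 40.7 percentage points that was about the size of the control SD. The reads of the 2 control values at 0% were 45 and 30, all of them skipping, and their Wilson intervals reached up to 7.87% and 11.4%. The 2 squalene values at 100% rested on 134 and 61 reads. In 5 of the 10 rabbits both acceptor sites had at least 18 reads, and these 5 values lay between 63.3% and 78.4%. The other 5 values lay at 94.2% to 100% in 3 squalene rabbits and at 0% in 2 control rabbits.

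A single site of base differences lay in the exons of this SMIM15 event, at position 77196860, 78 bases inside the shared part. The base called in a library there differed from the reference genome in 2 of 5 squalene libraries and in 5 of 5 control libraries. A difference of at least 3 libraries between the diets was found at 4.66% of the 145208 listed sites of base differences with reads in all libraries. The site table does not tell rabbits with 1 altered copy from rabbits with 2, and its libraries cannot be matched to the values of the splicing table. The part of this site, or of DNA linked to it, in the inclusion of SMIM15 was not tested.

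LOC103351000, an uncharacterised long non-coding RNA, had a lower mean inclusion of its extra 113 bases on squalene. Its long exon lay at NC_013684.1:68482516-68482693 on the minus strand and its flanking exon at 68490386-68490843. Inclusion was 98.8%, 84.2%, 79.7%, 66.7% and 74.1% on squalene, against 98.0%, 95.2%, 100%, 100% and 91.8% on the control diet. In 4 of 5 squalene rabbits it lay below every control value, and the remaining squalene rabbit fell within the control range. The means were 80.7% ± 12 on squalene and 97.0% ± 3.5 on the control diet (SD, n = 5 each), a difference of -16.3 percentage points. The reads that skipped the part numbered 1, 16, 26, 20 and 15 on squalene and 2, 4, 0, 0 and 9 on the control diet. Summed over the rabbits, skipping reads were 78 on squalene and 15 on the control diet, and including reads were 349 on squalene and 475 on the control diet. Adjusted for the length of the longer form, which offers more positions to a read, the difference was -25.3 percentage points.

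**Figure D2:**
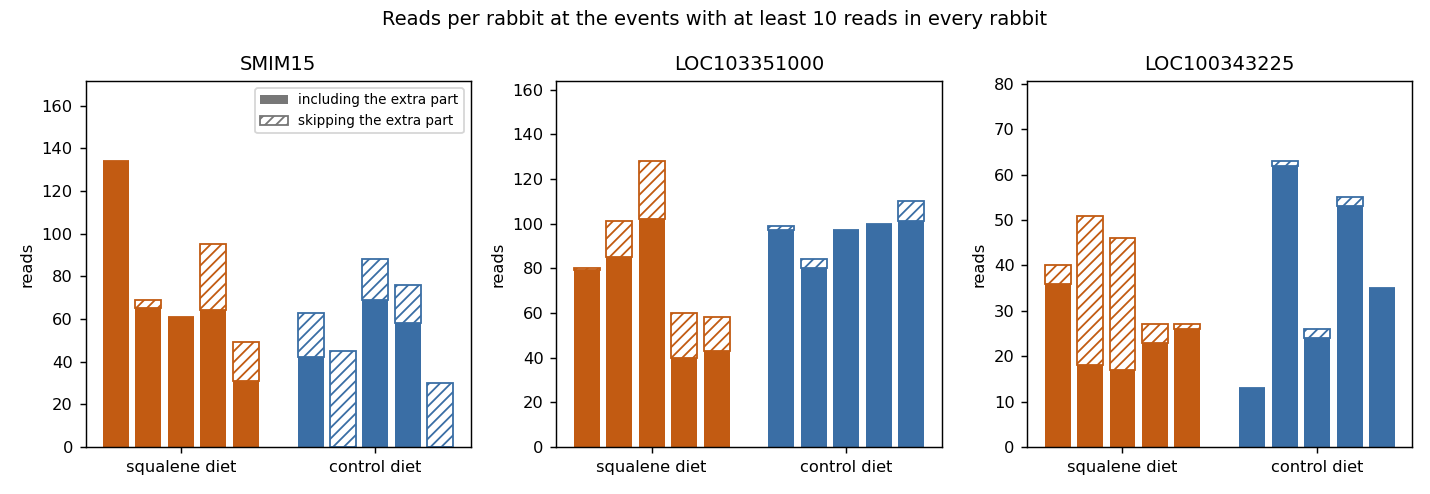
Reads per rabbit (vertical axis) that include (filled) or skip (hatched) the extra part, for the 3 events with at least 10 reads in every rabbit, with 5 squalene values left of 5 control values. The 2 control bars of SMIM15 without filled reads hold 45 and 30 skipping reads, and skipping reads of LOC103351000 reach 26 on squalene and 9 on the control diet.

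The series lists a further 2 events of LOC103351000, both skipped exons between the same donor of the flanking exon and the same inner acceptor site, and their skipping reads were the same numbers in every rabbit. These 3 events therefore share 1 set of skipping reads and are not independent. The exon at 68483735-68483856 had an inclusion of 81.2% ± 16.2 on squalene and 98.4% ± 1.73 on the control diet (SD, n = 5 each). For the exon at 68485212-68485364 it was 98.0%, 84.9%, 73.5%, 9.09% and 16.7% on squalene, against 98.7%, 94.8%, 100%, 100% and 92.6% on the control diet. The last 2 squalene rabbits had 2 and 3 reads that included this exon, beside 20 and 15 that skipped it, so in them the middle exon was mostly absent. In the control rabbits 73 to 195 reads included it. The same 2 rabbits, by position in the table, also had the lowest inclusion of the extra 113 bases.

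Sites with a non-reference base lay throughout the span of LOC103351000. Of its 37 sites, 17 had reads in all libraries, and at 3 of these the diets differed by 4 libraries. All 3 had the non-reference base in 4 of 5 squalene and 0 of 5 control libraries: position 68490474 in the flanking exon, 68483853 in the first of the skipped exons, and 68484209 in the intron between the skipped exons. Among all listed sites of base differences with reads in all libraries, a difference of at least 4 libraries in either direction was found at 0.635%. Another 4 of the 17 sites, at 68484260, 68484368, 68485375 and 68487448, differed by 3 libraries, each with more non-reference calls on squalene. Neighbouring sites are inherited together and are not independent, and the rabbits' kinship was not given in the sources used here. Both 4 squalene libraries with the non-reference base and 4 squalene values with at least 15 skipping reads were counted, but it cannot be said that they are the same rabbits. The part of these sites in the splicing of LOC103351000 was not tested.

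**Figure D3:**
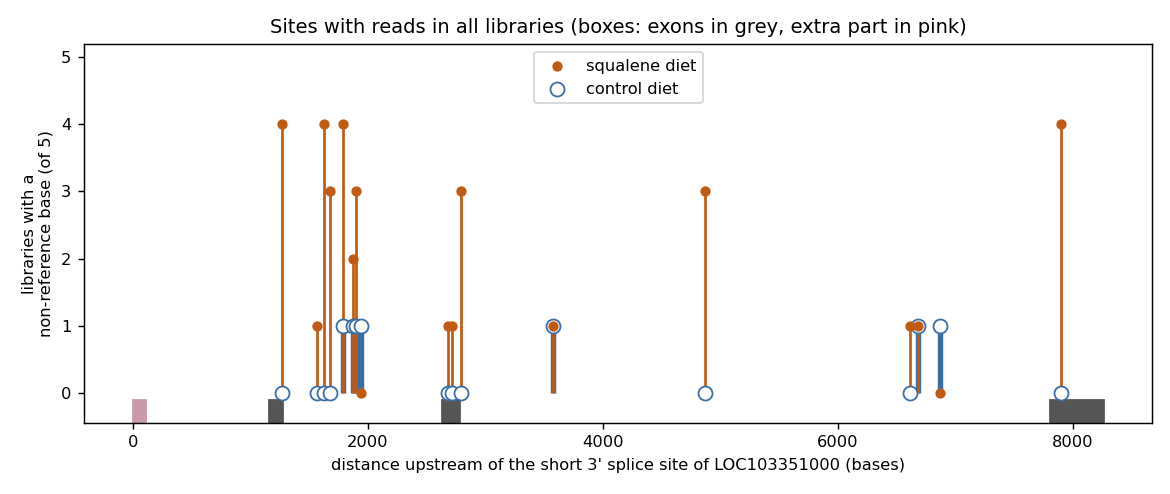
Number of libraries of each diet (vertical axis, of 5) with a non-reference base at the 17 sites of LOC103351000 with reads in all libraries, against the distance upstream of the inner 3′ splice site in bases (horizontal axis). Filled points are squalene and open points control; 3 sites reach 4 libraries on squalene with 0 on the control diet, and boxes on the axis show the extra part in pink and the other exons in grey.

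LOC100343225 is annotated as a pancreatic alpha-amylase, an enzyme that cleaves starch. Amylase genes occur as near-identical copies in mammals, so reads may be shared between copies and its counts are uncertain. The long exon lay at NC_013681.1:60482135-60483043 on the minus strand, of which the inner form keeps the part up to 60482348. Inclusion of the extra 695 bases was 90.0%, 35.3%, 37.0%, 85.2% and 96.3% on squalene, against 100%, 98.4%, 92.3%, 96.4% and 100% on the control diet. In 2 squalene rabbits the longer form was in the minority, with 33 and 29 skipping reads of 51 and 46, while the other 3 had 4, 4 and 1 skipping reads. The control rabbits had from 0 to 2 skipping reads. The means were 68.7% ± 30.04 on squalene and 97.4% ± 3.22 on the control diet (SD, n = 5 each), a difference of -28.7 percentage points, which was within the squalene SD. With the medians of the diets it was -13.2 percentage points, as the value then rests on the squalene rabbits with few skipping reads. One site in these exons, 60482336 in the shared part, had a non-reference base in 3 of 5 squalene and 4 of 5 control libraries.

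ZNF711, a zinc finger transcription factor that in human binds the histone demethylase PHF8, had a lower mean inclusion of its extra 628 bases on squalene. The long exon lay at NC_013690.1:76141429-76142161 on the plus strand, with the inner site at 76142057. Inclusion was 76.5%, 100%, 83.3%, 83.3% and 75% on squalene, from 17, 13, 6, 24 and 8 reads. It was 100%, 94.4%, 93.8%, 100% and 100% on the control diet, from 2, 36, 16, 11 and 29 reads. All but 1 of the squalene values lay below the control values. The means were 83.6% ± 9.92 on squalene and 97.6% ± 3.24 on the control diet (SD, n = 5 each), a difference of -14 percentage points. It rested on 11 skipping reads in all on squalene and 3 on the control diet. Adjusted for length, the difference was -22.6 percentage points. No site of base differences lay in the exons of this event.

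In DCAF8, a substrate receptor of the CUL4-DDB1 ubiquitin ligase, mean inclusion was higher on squalene in both events. The exon ended at 32834634 on NC_013681.1, plus strand. Its inner site was at 32834561 and its outer sites at 32834520 and 32834523. For the outermost site, inclusion was 92.3%, 100%, 100%, 100% and 75% on squalene, against 60%, 81.8%, 0%, 80.0% and 71.4% on the control diet. All but 1 of the squalene values were above the control values. The means were 93.5% ± 10.8 on squalene and 58.6% ± 33.9 on the control diet (SD, n = 5 each), a difference of 34.8 percentage points. For the other site they were 93.6% ± 10.8 on squalene and 56.9% ± 32.8 on the control diet, a difference of 36.6 percentage points. The events shared their skipping reads, 2 in all on squalene and 15 on the control diet, and are not independent. Of those 15 reads, 7 belonged to a control rabbit with no including read. Without that control rabbit, the differences were 20.1 and 22.4 percentage points. At least 10 reads were reached by 1 squalene rabbit and 2 control rabbits in the event with 41 bases, and by 1 rabbit per diet in the other. In these few rabbits the values were 11.4 and 11 percentage points apart. Both sites of base differences in these exons lay in the flanking exon, and at both nearly all libraries had the non-reference base: 4 of 4 squalene and 5 of 5 control libraries at 32833388, and 4 of 5 squalene and 5 of 5 control libraries at 32833730.

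HGF encodes hepatocyte growth factor, the ligand of the receptor MET and a mitogen of hepatocytes, made in the liver mainly by stellate and other mesenchymal cells. In human a natural form of HGF lacks 5 residues in the first kringle domain. The extra part here had the length of 5 codons, at the start of the exon NC_013675.1:34106988-34107130 on the plus strand. Whether it is the same stretch was not tested. Inclusion was 100%, 85.7%, 0%, 83.3% and 100% on squalene, from 8, 7, 1, 12 and 6 reads. It was 100%, 50.0%, 55.6%, 50.0% and 38.9% on the control diet, from 3, 16, 9, 6 and 18 reads. In 4 of 5 squalene rabbits the longer form prevailed and in 4 of 5 control rabbits both forms were seen in like numbers, and the 2 values apart rested on 1 and 3 reads. The means were 73.8% ± 42.0 on squalene and 58.9% ± 23.8 on the control diet (SD, n = 5 each), and the difference of 14.9 percentage points was well within the spread. Over the summed reads, inclusion was 88.2% of 34 reads on squalene and 50.0% of 52 reads on the control diet, 38.2 percentage points apart. The difference was 8.37 percentage points without either squalene rabbit at 100%, 33.4 without the squalene rabbit with 1 read, 25.2 without the control rabbit at 100% and 9.92 without the control rabbit at 38.9%. It was 7.54 without the rabbit with the most reads in each diet.

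DUS4L, a dihydrouridine synthase of transfer RNA, had the fewest reads on squalene. Its exon lay at NC_013675.1:44051960-44052206 on the plus strand, with an extra part of 20 bases. Inclusion was 50.0%, 100%, 100%, 0% and 100% on squalene, from 4, 1, 3, 1 and 2 reads. It was 44.4%, 33.3%, 0%, 33.3% and 100% on the control diet, from 9, 3, 3, 15 and 5 reads. Both diets thus reached over the whole range from 0% to 100%. The means were 70.0% ± 44.7 on squalene and 42.2% ± 36.3 on the control diet (SD, n = 5 each). The difference of 27.8 percentage points was within the SD of each diet, and with medians it was 66.7. It was 45.3 without the squalene rabbit at 0%, 17.2 without the control rabbit at 0% and 42.2 without the control rabbit at 100%. The Wilson intervals of the summed reads, which cover counting error only, were 43.4% to 90.3% on squalene and 27.98% to 59.1% on the control diet. Summed over the rabbits, the event had 11 reads on squalene and 35 on the control diet, a ratio of 0.314.

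ZNF263 and ZSCAN25 are zinc finger proteins with a SCAN domain, which serves the pairing of such proteins. ZNF263 had the shortest extra part, 3 bases or the length of 1 codon, at NW_003159454.1:520247-520320 on the plus strand. In a coding exon, acceptor sites 3 bases apart add or leave out the length of a single codon. Inclusion was 33.3%, 100%, 75%, 80.0% and 75% on squalene, from 3, 1, 4, 5 and 4 reads. It was 50.0%, 0%, 0%, 0% and 62.5% on the control diet, from 2, 1, 1, 2 and 8 reads. In all but 1 squalene rabbit the value exceeded the control values. The means, 72.7% ± 24.3 on squalene and 22.5% ± 31.1 on the control diet (SD, n = 5 each), differed by 50.2 percentage points. The 3 control values at 0% rested on 4 reads together. Over the summed reads, 12 of 17 on squalene and 6 of 14 on the control diet included the 3 bases, and the difference was 27.7 percentage points. With 0.5 reads added to each count it was 29.9.

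The ZSCAN25 exon was the longest, at NW_003159386.1:706949-713621 on the minus strand, with an extra part of 615 bases. Inclusion was 85.0%, 100%, 100%, 100% and 100% on squalene, from 20, 2, 6, 21 and 12 reads. It was 77.8%, 83.9%, 88.9%, 90.0% and 90.9% on the control diet, from 9, 31, 27, 30 and 44 reads. All control rabbits and 1 squalene rabbit had reads that skip the part, and the other 4 squalene rabbits had 0. The means were 97.0% ± 6.71 on squalene and 86.3% ± 5.48 on the control diet (SD, n = 5 each), a difference of 10.7 percentage points. Fewer reads lay behind it on squalene, 61 in all, than on the control diet, 141 in all, so 0 skipping reads of 2 or 6 leave wide intervals, with lower ends at 34.2% and 61.0%. With only the 3 squalene and 4 control rabbits of at least 10 reads the difference was 6.58 percentage points, with 0.5 reads added to each count it was 5.88, and adjusted for length it was 18.6. The exons of ZSCAN25 held 39 of the 47 sites of base differences in the exons of the 9 genes, and 4 of these were in the extra part. Of the 39, 32 had reads in all libraries, and at 3 of these 32, positions 707248, 709335 and 710715, the base differed from the reference in 3 of 5 squalene and 0 of 5 control libraries, beside the 4.66% of all such sites that differ by at least 3 libraries in either direction. Position 709251, without reads in 1 squalene library, went the other way, with 0 of 4 squalene and 3 of 5 control libraries.

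**Figure D4:**
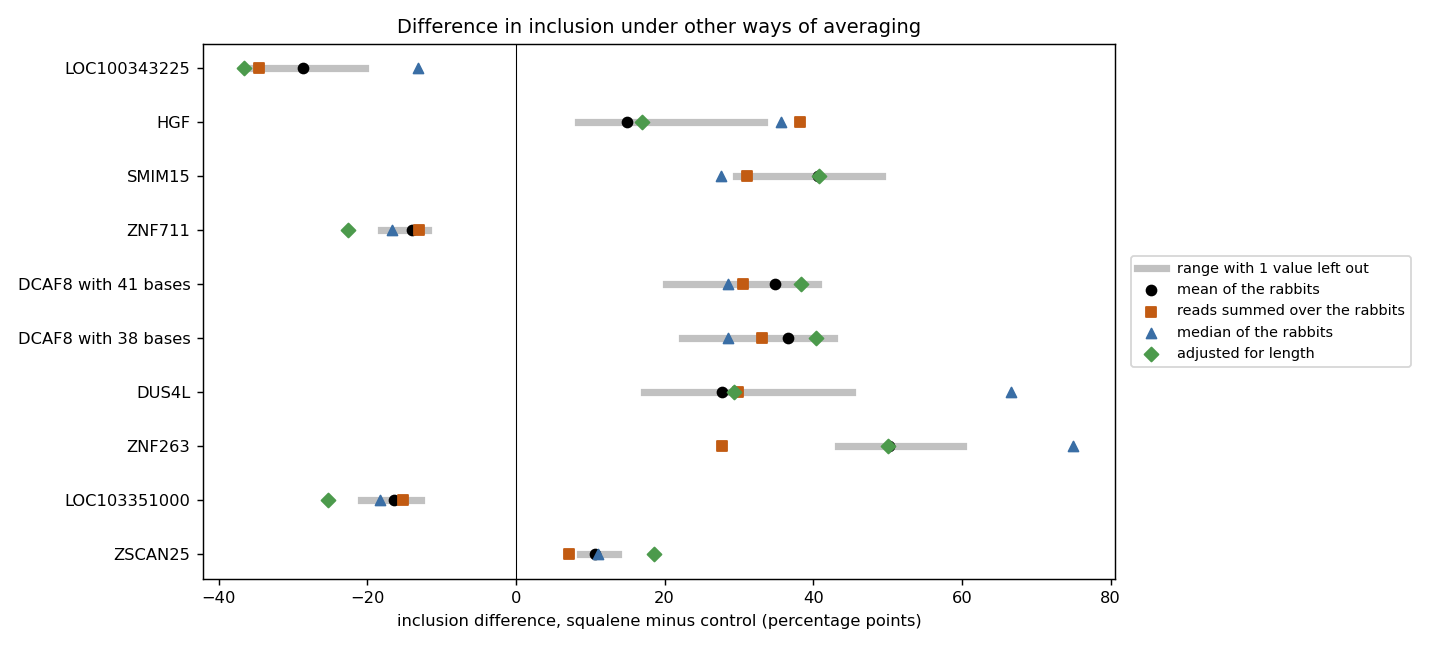
Difference in inclusion, squalene minus control, in percentage points (horizontal axis) for each event, as the mean over rabbits, from summed reads, as the median and adjusted for length; grey bars give the range when 1 value is left out. All points of an event lie on the same side of 0, and the points of HGF, DUS4L and ZNF263 lie far apart, such as 14.9 and 38.2 for HGF.

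The reads at an event, which add up both forms, were fewer on squalene in 8 of 10 events. This count takes in LOC100343225, with nearly equal reads, and both DCAF8 events, which share reads. It was not made over all 46 events of the series. Ratios of squalene over control were 1.35 in SMIM15 and 1.21 in ZNF263. They were 0.995 in LOC100343225, 0.871 in LOC103351000, 0.730 and 0.725 in the DCAF8 events, 0.723 in ZNF711, 0.654 in HGF, 0.433 in ZSCAN25 and 0.314 in DUS4L. Reads of SMIM15 were 81.6 ± 33.8 on squalene and 60.4 ± 23.3 on the control diet (SD, n = 5 each), within the spread. Reads of ZNF711, 13.6 ± 7.23 on squalene and 18.8 ± 13.7 on the control diet, were also within it. The same held for HGF, with 6.8 ± 3.96 on squalene and 10.4 ± 6.43 on the control diet. Reads of ZSCAN25, 12.2 ± 8.38 on squalene and 28.2 ± 12.6 on the control diet, were further apart than either SD. Without the control rabbit with 8 reads, the ratio in ZNF263 was 2.27, and without the squalene rabbit with 14 reads, that of the DCAF8 event with 38 bases was 0.439.

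Gene levels come from a table of 19123 genes with 1 level per diet, so there is no replicate check and a fold of 1.5 is counted in place of a test. The decimal mark of the larger levels had been lost, and the ratio of the diets was taken at the power of 10 nearest to no change, so no level itself is given. Taken in this way, a log2 ratio cannot exceed 1.66 in size. A gene with a larger change would be given a wrong size and can be given a wrong sign. The study reports log2 ratios beyond this limit for some genes, so some genes counted here may be affected. The authors' fold changes and directions were not used to find them. The ratios, and the shares of genes past a fold, hold under this limit. In bulk liver, fewer cells of a type and less RNA per cell cannot be told apart. Of the 9 genes, 1 passed the fold, against 7.69% of all genes in either direction and 7.56% with predicted genes left out. This was SMIM15, 1.69-fold higher on squalene (0.76 on the log2 scale), where 4.7% of all genes were past the fold upwards. At the lower fold tried, 5 of the 9 genes were past it, against 29.2% of all genes, and at a fold of 2 it was 0 of 9, against 0.999%. LOC100343225 was at 0.46, DUS4L at 0.39 and ZNF711 at 0.26 on the log2 scale. ZSCAN25 was at -0.04, DCAF8 at -0.05 and ZNF263 at -0.09. HGF was at -0.40 and LOC103351000 at -0.43. The log2 ratio of the 9 genes had a median of -0.04, beside 0.02 over all genes, with 4 positive and 5 negative. The 3 genes with lower inclusion on squalene had log2 ratios of 0.46, 0.26 and -0.43.

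**Figure D5:**
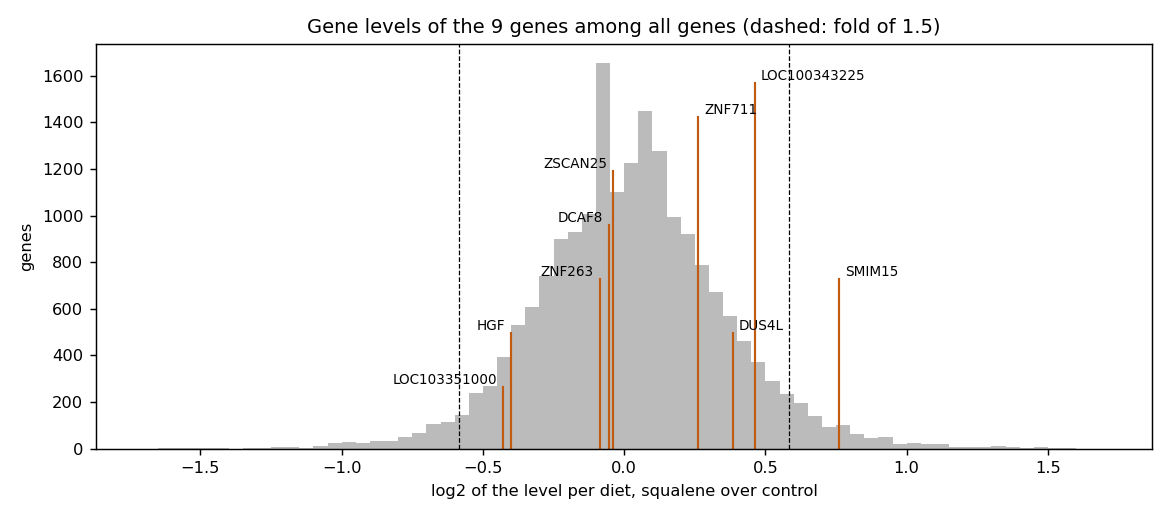
Distribution of the log2 ratio of the level per diet, squalene over control (horizontal axis), as the number of genes per bin (vertical axis, grey), with the 9 genes as orange lines whose height only separates the labels. Dashed lines mark the fold of 1.5; SMIM15 at 0.76 is the 1 gene of the 9 outside them.

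Among 24 genes for recognition of the 3′ splice site, 21 were found in the level table. Of these, 1 passed the fold, a share not above the 7.69% of all genes: SNRPB2, a protein of the U2 particle, 1.51-fold higher on squalene (0.60 on the log2 scale). SF3B3, a subunit of the SF3B complex that binds the branch site, was at -0.58, just short of the fold. The list had 7 positive and 14 negative log2 ratios and a median of -0.05. Of 8 factors of the second splicing step, which act when the acceptor AG is chosen, 6 were found and 0 passed the fold, from -0.25 for DHX8 to 0.27 for SLU7 (median 0.10). Of the SR proteins and TRA2, which bind exonic enhancers, all 12 were found and 0 passed the fold, from -0.25 for SRSF1 to 0.16 for SRSF6 (median 0.04).

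Genes around single members of the list were read in the same way. Of 15 genes of HGF activation and MET signalling, 14 were found, with 7 positive and 7 negative log2 ratios and a median of -0.01. MET, the receptor of HGF, was 1.54-fold lower on squalene (-0.63 on the log2 scale) and was the only one past the fold. This 1 of 14 is a share not above the 7.69% of all genes. SPINT2, an inhibitor of the proteases that activate HGF, had the highest ratio of this list, 0.37. Other genes of the list were HPN at 0.29, PLAU at 0.18 and PLAT at -0.45. Markers of stellate cells, which make HGF, ranged from -0.26 for COL1A1 to 0.28 for RGS5, with 2 of 5 positive and a median of -0.01. Of the tRNA dihydrouridine synthases, 3 of 4 were found, from -0.17 for DUS3L to 0.39 for DUS4L. The CUL4-DDB1 ligase had 15 of 17 genes in the table, from -0.34 for DCAF1 to 0.43 for DCAF11, with a median of -0.10. In none of the last 3 lists did a gene pass the fold.

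The labelled tissue was liver, and 4 of 5 hepatocyte markers were found, with log2 ratios from 0.22 for APOA1 to 0.43 for TTR and a median of 0.35. All 4 endothelial markers had negative ratios, from -0.40 for STAB2 to -0.03 for STAB1. Kupffer cell markers (4 of 5 found) ranged from -0.12 for MARCO to 0.46 for CD5L, with a median of 0.12. Cholangiocyte markers (3 of 4) went both ways, from -0.30 for KRT7 to 0.52 for EPCAM, the largest change among the cell type markers, with a median of -0.14. Muscle markers (2 of 3) were at -0.10 for ACTA1 and 0.13 for CKM. None of the cell type markers passed the fold. Their levels could not be compared within a diet, as the order of magnitude was lost. The part of these cell types in the levels or the splicing of the 9 genes was not tested.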

How the data were processed

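The events and gene lists were chosen with earlier results of these data known. Reads passing the authors' quality filter were mapped by them to OryCun2.0 with HISAT2. They found splicing events with rMATS, called base differences with GATK, and made gene levels with Bowtie and RSEM; versions are not given in the sources used here. The deposited splicing tables hold read counts that include or skip a part, 5 values per diet without rabbit numbers, for listed events only. They also hold a p-value and an FDR by the authors, of which the FDR was read only to state the limit of the list. The deposited level table holds 1 level per diet, with the authors' fold changes, p-values, adjusted p-values and directions, which were not used. The deposited site table holds the base called in each library, whose column name gives the diet. Font colours, which mark the calls accepted by the authors, were not used here.

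From these were computed inclusion per value, mean and SD, 95% Wilson intervals (counting error only), sums of reads, log2 ratios of levels and counts of libraries with a non-reference base. Starts in the splicing tables were taken as counted from 0, and 1 was added. Where including reads were adjusted for length, reads of 100 bases were assumed. No test was run, because the events had been selected on the same rabbits and levels have 1 value per diet. Named are all 9 genes and, from each list, the genes past a fold of 1.5 and otherwise the lowest and highest log2 ratio. SF3B3, SPINT2, HPN, PLAU and PLAT, outside this rule, were named after their values were seen. PHF8 and other names without values are background. Sites were named after their values were seen. Alternatives were summed reads, medians, length adjustment, 0.5 reads added, a minimum of 10 reads, leaving out each value, folds of 1.25 and 2, and other windows for sites. The whole span of an event, leaving out the rabbit with the most reads, and 1 event per gene were added after seeing the data. Clean reads are the deposited numbers per library, whose names match no single sample label, so their range over all libraries is given. The recovery of ratios was tried on simulated data with 200 genes changed by a log2 of 1.2, which is below the limit of 1.66. This simulation does not cover larger changes, which the recovery cannot give. Python 3.11.15, numpy 2.4.6, scipy 1.17.1 and matplotlib 3.10.9 were used.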

Additional observations from a re-analysis of the deposited data

Results flagged for a closer look

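In groups of 5 values, 9 of 40 groups of inclusion or reads had an extreme value far from the other 4. The criterion is met in about 1 of 20 groups of independent, normally distributed values. Inclusion and reads here are bounded, rest on few reads and are often tied, and the DCAF8 events share reads. That rate is therefore no measure of chance for these groups. In HGF, the lowest squalene inclusion was 0% with 83.3% next to it, and the highest control inclusion was 100% with 55.6% next to it. In the DCAF8 event with 38 bases the lowest squalene inclusion was 75% with 92.9% next to it. In both DCAF8 events the lowest control inclusion was 0% with 60% next to it. In ZSCAN25, the lowest squalene inclusion was 85.0%, while the other 4 values were at 100%. The most reads on squalene were 13 in the DCAF8 event with 41 bases and 14 in that with 38, with 5 next to them in both. The most reads on the control diet in ZNF263 were 8, with 2 next to them. All these values rest on 20 reads or fewer.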

How the results depend on the processing

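No direction of an inclusion difference reversed under the alternatives run. Of the 58 alternatives other than leaving out 1 value at a time, 54 moved the inclusion difference by less than the spread between rabbits. That spread is the SD pooled over the diets and is wide. In DUS4L it was 40.7 percentage points, so the 66.7 with medians, against 27.8 with means, is among the 54. The exceptions were the length adjustment, with -22.6 percentage points in ZNF711, -25.3 in LOC103351000 and 18.6 in ZSCAN25, and the minimum of 10 reads, with 11 in the DCAF8 event with 38 bases, where 1 rabbit per diet was left. In DUS4L and ZNF263 no squalene rabbit reached that minimum, so it gave no difference. Leaving out 1 value gave -35.6 to -20.3 in LOC100343225, 8.37 to 33.4 in HGF, 29.6 to 49.2 in SMIM15, -18.1 to -11.9 in ZNF711, 20.1 to 40.6 and 22.4 to 42.9 in DCAF8, 17.2 to 45.3 in DUS4L, 43.3 to 60.2 in ZNF263, -20.8 to -12.8 in LOC103351000 and 8.58 to 13.7 in ZSCAN25.

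The number of events with diets fully apart was 0, and 0 to 3 when the values at 1 position were left out in both diets: 3 without the first or the fifth, 2 without the second, 1 without the third and 0 without the fourth. The rabbits at a position are unrelated between the diets, and other combinations were not tried. With fewer values the diets lie apart more easily. This leaving out was not done over all 46 events, so these counts have no share to be set beside. Of the 9 genes, 5 passed the lower fold tried (29.2% of all genes) and 0 a fold of 2 (0.999%), against 1 at 1.5. Sites of base differences numbered 47 in the exons, 56 with 200 bases on each side, 38 with reads in all libraries, and 140 over the whole span of the events, which takes in the introns. No paired analysis was possible because the values carry no rabbit numbers and no test was run. Few reads limit 7 of the 10 events, and the match of including to skipping reads by position is assumed.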
